A study of Mus musculus with 6 samples.

Results

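The integrated stress response and the serine and one-carbon pathway that it controls were followed through 40 genes in bone marrow mesenchymal stem cells (BMSCs) of the mouse, the adherent stromal cells of marrow. The 40 were picked by name, for their known roles, from the 22984 genes of the deposited table, and all 40 were in it. They were 3 kinases of the translation factor eIF2, 6 transcription factors, 7 feedback and stress effectors, 5 enzymes of amino acid synthesis, 7 enzymes of serine and mitochondrial one-carbon metabolism, 8 amino acid transporters, and 4 genes for secreted factors and a lipoprotein receptor. The series held 3 libraries of genotype Grx2-/- and 3 of genotype Grx2+/+, each a bulk library of total RNA. Grx2 is glutaredoxin 2, a thiol-disulfide oxidoreductase of mitochondria encoded by Glrx2. The design text names the cells O-BMSCs without expanding the prefix, and the strain, sex and age of the mice, the passage, any treatment and how the allele was made are absent from the labels. Nor do the labels say whether replicates were separate animals or cultures, so every p-value below measures only the spread between these libraries.

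In the integrated stress response, kinases that sense haem or mitochondrial distress, unfolded protein in the endoplasmic reticulum, or uncharged transfer RNA phosphorylate eIF2, which slows translation in general while that of ATF4 goes on. ATF4 is a transcription factor that pairs with C/EBP and other partners at the C/EBP-ATF composite element, and it turns on genes for amino acid uptake, amino acid and serine synthesis, mitochondrial folate enzymes and feedback inhibitors. Osteoblasts, which can form from these stromal cells, rely on ATF4 for amino acid supply during matrix production. ATF4 is set largely at translation, and neither ATF4 protein nor eIF2 phosphorylation was measured here.

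Libraries were of like depth, 40797879 to 41794919 reads each. Glrx2 had 1, 0 and 0 reads in Grx2-/- replicates 1 to 3, against 756, 800 and 761 reads in Grx2+/+ replicates 1 to 3, in accord with the labels. Of the 10 mesenchymal stromal markers, 5 were higher and 5 lower, and their summed level was 7615 to 8435 FPKM (fragments per kilobase of gene, scaled to a common depth) in Grx2-/- libraries and 9104 to 10078 FPKM in Grx2+/+ libraries. That sum hides opposed shifts: Thy1 averaged 167 FPKM in Grx2-/- and 11.9 FPKM in Grx2+/+ libraries, and Nt5e 2.10 and 10.8 FPKM. The summed levels of neutrophil, macrophage and endothelial markers differed more than the stromal sum. The 7 neutrophil markers summed to 1.81 to 2.12 FPKM in Grx2-/- libraries and to 881 to 2560 FPKM in Grx2+/+ libraries, and the 6 macrophage markers to 2243 to 3038 FPKM in Grx2-/- libraries and 1326 to 1463 FPKM in Grx2+/+ libraries. The endothelial markers summed to 0.938 to 1.09 FPKM in Grx2-/- libraries and to 15.3 to 18.3 FPKM in Grx2+/+ libraries. Of these, Tek went the other way, averaging 0.609 FPKM in Grx2-/- libraries and 0.265 FPKM in Grx2+/+ libraries. The lymphoid and erythroid sums were under 1 FPKM in every library, with Cd3g, Hbb-bs and Hba-a1 listed at 0 in all Grx2-/- libraries.

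Expression of the pathway was lower in Grx2-/- cells across most of its parts. Of the 38 members tested, 32 fell, 2 rose (Atf3 and Slc1a5) and 4 did not pass (Eif2ak1, Eif2ak3, Jdp2 and Slc3a2), by limma on log2(FPKM + 1) with Benjamini-Hochberg adjustment over 11083 genes. Among all tested genes, 24.6% fell and 42.7% rose. Of those members, 32 had every Grx2-/- library below every Grx2+/+ library, against 27.4% of all tested genes, and 2 had every Grx2-/- library above, against 45.7%. A fall of at least 2-fold was called for 10 of the 38, against 3.54% of all tested genes. These counts include Slc7a3, which passed the filter only through its level in Grx2+/+ cells; among the other 37 members, 31 fell, 9 of them by at least 2-fold, and 2 rose. The median log2 fold change was -0.59 over the 38 members, with a range of -2.07 to 0.68, and 0.09 over all tested genes. The balance over all tested genes depended on scaling, with 4737 higher and 2728 lower as deposited against 3699 higher and 3670 lower after median-of-ratios scaling, whereas that of the members did not, with 2 higher and 32 lower under both. Log2 fold changes are Grx2-/- over Grx2+/+ on the log2(FPKM + 1) scale, with their SE where given; means are given with their SD over 3 libraries. This scale understates the change of low genes. In bulk RNA, fewer cells of a type and less RNA per cell cannot be told apart, and what part the marker differences between the groups have in these values was not tested. Because the 40 were picked with earlier results of these data known, their counts are a description and no test of the pathway.

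**Figure D1:**
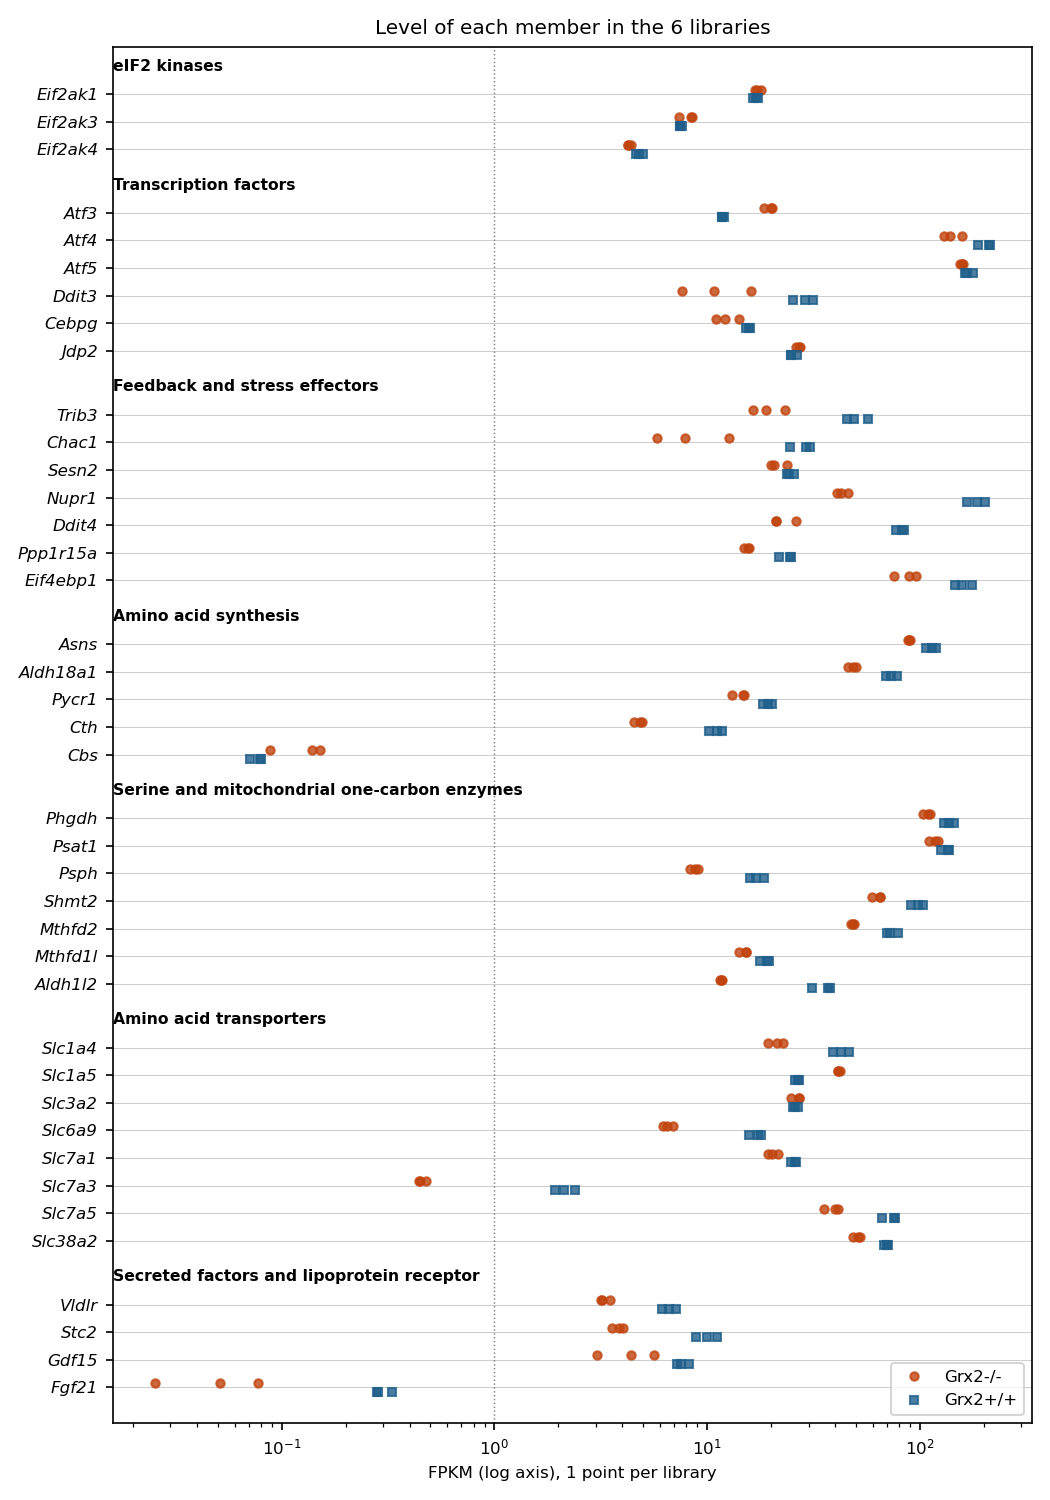
FPKM (log axis) of each of the 40 members by class, 1 point per library, Grx2-/- as circles above Grx2+/+ as squares, with a dotted line at 1 FPKM. Grx2-/- points lie left of Grx2+/+ points for most members, to the right for Atf3 and Slc1a5, and Cbs and Fgf21 lie below the line.

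The promoters of the members were read first for the element that ATF4 binds. RefSeq windows of 300 bases, 250 before and 50 after a transcription start, were at hand for 34 members. The letters TGATGNAA, the core of the composite element, were searched on both strands (TTNCATCA where read on the opposite one). So was TGACG, a part of the cyclic AMP response element (CRE), which reads CGTCA on the opposite strand. A match of TGACG is called the CRE motif below and need not be a full CRE. No match of one overlapped a match of the other in the 44 windows of the members. The composite core was in a window of 10 of the 34 members (29.4%), against 1219 of 27025 genes in the RefSeq table (4.51%) and 3.97% of all windows. The CRE motif was in a window of 16 of the 34 members (47.1%), against 23.0% of those genes and 20.8% of all windows. Several members, Asns, Chac1 and Trib3 among them, are known for such an element, so the share describes a choice made partly on it. The matches are shown with up to 30 bases on each side (build GRCm38.p6, RefSeq, 5′ to 3′ on the strand of the gene, stopped 30 bases after the start), the composite core in capitals, because they place the element beside the genes whose levels follow.
Atf3: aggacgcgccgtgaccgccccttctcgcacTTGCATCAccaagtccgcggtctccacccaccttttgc
Chac1: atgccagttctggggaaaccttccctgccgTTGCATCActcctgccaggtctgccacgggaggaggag
Trib3: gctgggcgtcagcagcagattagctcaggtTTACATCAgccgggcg
Asns: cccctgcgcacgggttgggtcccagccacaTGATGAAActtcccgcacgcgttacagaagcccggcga
Fgf21: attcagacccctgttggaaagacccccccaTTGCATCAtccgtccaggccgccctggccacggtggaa
Nupr1: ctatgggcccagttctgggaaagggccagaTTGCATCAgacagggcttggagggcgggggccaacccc
Slc1a4: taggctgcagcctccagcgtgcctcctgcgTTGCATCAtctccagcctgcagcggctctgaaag
Pycr1: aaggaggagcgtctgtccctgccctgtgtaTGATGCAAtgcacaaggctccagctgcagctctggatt
Jdp2: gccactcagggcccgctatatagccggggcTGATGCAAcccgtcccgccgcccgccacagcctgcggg
Vldlr: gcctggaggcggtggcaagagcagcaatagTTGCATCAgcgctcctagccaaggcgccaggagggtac

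The stretches lie at chr1:191183406-191183473 (Atf3, minus strand), chr2:119351019-119351086 (Chac1, plus strand), chr2:152344031-152344076 (Trib3, minus strand), chr6:7693195-7693262 (Asns, minus strand), chr7:45615592-45615659 (Fgf21, minus strand). The remaining ones lie at chr7:126625543-126625610 (Nupr1, minus strand), chr11:20332684-20332747 (Slc1a4, minus strand), chr11:120643814-120643881 (Pycr1, minus strand), chr12:85599353-85599420 (Jdp2, plus strand) and chr19:27216790-27216857 (Vldlr, plus strand). The sequence TTGCATCA or its reverse complement TGATGCAA was the match in 8 of the 10. Measured to the first letter of the match, the cores ran from position -200 in Vldlr to position 14 in Trib3, where negative positions lie before the start. For Vldlr and Jdp2, which have 2 and 3 windows, the core was in the second.

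**Figure D2:**
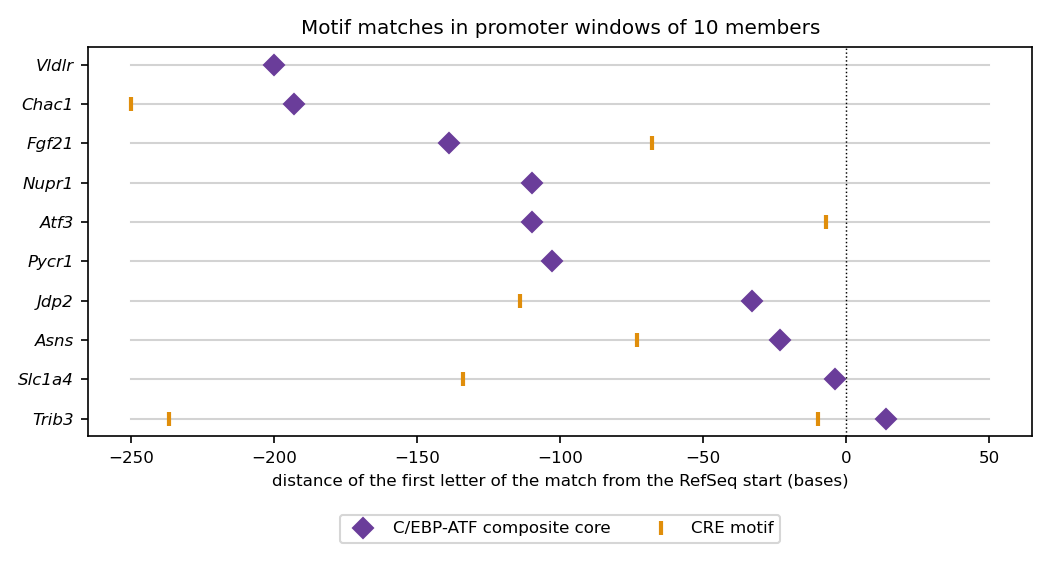
Distance in bases of each match from the RefSeq start (dotted line, 0) in the windows of the 10 members with a composite core (diamonds), with CRE motifs as ticks and grey lines as the windows. The cores lie between -200 in Vldlr and 14 in Trib3, and 7 of the 10 windows also hold a CRE motif.

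Most members with a core in the window fell, as did most members without one, and 1 member with a core rose. Of the 10 members with it, 7 fell (Asns, Chac1, Nupr1, Pycr1, Slc1a4, Trib3 and Vldlr), Atf3 rose, Jdp2 did not pass and Fgf21 was below the filter, with a median log2 fold change of -0.83 over those tested. Among the 24 with a window and no core, 20 fell, 3 did not pass and 1 was below the filter, with a median of -0.45. Beside these counts, 24.6% of all tested genes fell and 42.7% rose. A window without these letters says nothing of elements elsewhere in a gene.

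At the head of the pathway the 3 kinases among the members showed small differences. Another eIF2 kinase gene, Eif2ak2, is no member and is given below with the rest of the eIF2 machinery. Eif2ak4 encodes GCN2, the sensor of uncharged transfer RNA, and had 4.23, 4.37 and 4.27 FPKM in Grx2-/- replicates 1 to 3, against 4.79, 5.02 and 4.65 FPKM in Grx2+/+ replicates 1 to 3. Its groups did not overlap, and its log2 fold change of -0.14 ± 0.049 passed by limma (adjusted p = 0.0377). That call did not hold when any 1 library was left out, with adjusted p-values of 0.0556 to 0.108. Eif2ak1, which encodes the haem-regulated kinase HRI, had 16.8, 17.1 and 17.8 FPKM in Grx2-/- libraries and 16.9, 16.5 and 17.3 FPKM in Grx2+/+ libraries. Its log2 fold change was 0.03, with a 95% interval of -0.06 to 0.12. Eif2ak3 encodes PERK, the kinase of the endoplasmic reticulum, and averaged 8.10 ± 0.643 FPKM in Grx2-/- cells and 7.51 ± 0.108 FPKM in Grx2+/+ cells, a log2 fold change of 0.09 with a 95% interval of -0.04 to 0.23. Without Grx2-/- replicate 2 its value was 0.15 and passed (adjusted p = 0.0256).

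The other parts of the eIF2 machinery moved both ways. Among 17 genes for eIF2 subunits, the exchange factor eIF2B, sensors and cofactors, 5 rose, 6 fell and 6 did not pass, with a median log2 fold change of -0.02, beside the 42.7% of all tested genes that rose and the 24.6% that fell. After median-of-ratios scaling, 2 were higher and 9 lower, beside 3699 higher and 3670 lower among all tested genes. The largest rises were of Eif2ak2 (0.58), which encodes the kinase PKR that responds to double-stranded RNA, and Dele1 (0.52), the messenger of mitochondrial stress to HRI. The 3 largest falls were of Eif2s2 (-0.47), the beta subunit of eIF2, of Eif2b2 (-0.23), the beta subunit of eIF2B, and of Eif2a (-0.22), an initiation factor distinct from eIF2. Without Grx2+/+ replicate 3 the value of Eif2a was -0.21 and did not pass (adjusted p = 0.0523).

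Among the transcription factors, Atf4, Ddit3, Cebpg and Atf5 fell and Atf3 rose. Atf4 had 157, 129 and 138 FPKM in Grx2-/- replicates 1 to 3, against 214, 189 and 211 FPKM in Grx2+/+ replicates 1 to 3. Every Grx2-/- library was below every Grx2+/+ library, and the log2 fold change was -0.53 ± 0.077 (adjusted p = 0.000424). Ddit3 encodes CHOP, a C/EBP-family factor induced in prolonged stress, and had 16.1, 7.59 and 10.8 FPKM in Grx2-/- libraries and 31.5, 25.4 and 28.8 FPKM in Grx2+/+ libraries. It had the largest difference of the class, -1.29 ± 0.22, with no overlap although Grx2-/- replicate 1 held 2.12 times the level of replicate 2. Cebpg encodes C/EBP gamma, a partner of ATF4, and averaged 12.4 ± 1.55 FPKM in Grx2-/- cells and 15.6 ± 0.304 FPKM in Grx2+/+ cells, a log2 fold change of -0.32 (adjusted p = 0.00722). Other C/EBP genes, which are no members and were picked after their values were seen, went the other way, with Cebpb at 36.4 ± 2.22 FPKM in Grx2-/- cells and 21.2 ± 2.10 FPKM in Grx2+/+ cells (0.76, adjusted p = 4.16e-05). Cebpa averaged 21.1 ± 0.868 FPKM in Grx2-/- cells and 16.7 ± 1.20 FPKM in Grx2+/+ cells (0.33, adjusted p = 0.00117).

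Atf3 encodes a stress-induced factor that lies downstream of ATF4 and of other pathways. It had 18.4, 20.0 and 20.3 FPKM in Grx2-/- replicates 1 to 3, against 12.0, 11.7 and 11.7 FPKM in Grx2+/+ replicates 1 to 3, so the lowest Grx2-/- library exceeded the highest Grx2+/+ library. Its log2 fold change was 0.68 ± 0.045 (adjusted p = 4.68e-06), opposite in sign to that of Ddit3. Atf5, a relative of ATF4 tied to the mitochondrial unfolded protein response, averaged 157 ± 2.96 FPKM in Grx2-/- cells and 169 ± 7.47 FPKM in Grx2+/+ cells. Its log2 fold change of -0.10 passed narrowly (adjusted p = 0.0468), and leaving out any 1 of 5 libraries, all but Grx2+/+ replicate 2, ended the call. Without Grx2+/+ replicate 1 its value was -0.07. Jdp2, which encodes a repressor of the AP-1 family, had a log2 fold change of 0.08 with a 95% interval of -0.01 to 0.17.

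The feedback and stress effectors held the largest differences of the pathway, with all 7 lower, beside 24.6% of all tested genes. Their median log2 fold change was -1.34. Nupr1, a small stress-induced nuclear protein, had 45.8, 40.6 and 42.7 FPKM in Grx2-/- replicates 1 to 3, against 202, 167 and 186 FPKM in Grx2+/+ replicates 1 to 3. Its log2 fold change of -2.07 ± 0.071 (adjusted p = 1.45e-07) was the largest among members above a mean of 1 FPKM in both groups. Ddit4 encodes REDD1, an inhibitor of mTORC1, and had 26.1, 21.1 and 21.1 FPKM in Grx2-/- libraries and 84.4, 76.9 and 82.5 FPKM in Grx2+/+ libraries. For both genes the groups stood far apart, and the mean level in Grx2+/+ cells was 4.29 times that in Grx2-/- cells for Nupr1 and 3.57 times for Ddit4.

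Chac1 encodes an enzyme that breaks down glutathione, the cofactor of glutaredoxins. It had 12.7, 5.82 and 7.86 FPKM in Grx2-/- replicates 1 to 3 and 30.5, 24.5 and 29.3 FPKM in Grx2+/+ replicates 1 to 3, and its log2 fold change was -1.63 ± 0.22 (adjusted p = 0.000318). Its Grx2-/- libraries were uneven, with replicate 1 at 2.18 times the level of replicate 2, but all lay below the Grx2+/+ libraries. Trib3, a pseudokinase that restrains ATF4 and CHOP, had 23.2, 16.5 and 18.9 FPKM in Grx2-/- libraries and 57.1, 45.5 and 49.2 FPKM in Grx2+/+ libraries (-1.34 ± 0.12). Eif4ebp1 encodes the translation repressor 4E-BP1 and had 75.4, 95.7 and 88.6 FPKM in Grx2-/- libraries and 176, 147 and 158 FPKM in Grx2+/+ libraries (-0.88 ± 0.094). Neither gene's groups overlapped.

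Both genes that direct the phosphatase to eIF2 were compared. Ppp1r15a encodes GADD34, the inducible one, and had 14.9, 15.6 and 15.8 FPKM in Grx2-/- libraries and 24.7, 21.8 and 24.6 FPKM in Grx2+/+ libraries, a log2 fold change of -0.59 ± 0.054 (adjusted p = 3.34e-05). Ppp1r15b, the constitutive one, averaged 23.6 ± 0.566 FPKM in Grx2-/- cells and 26.8 ± 0.457 FPKM in Grx2+/+ cells. It also fell by limma, with a log2 fold change of -0.17 (adjusted p = 0.00289). The FPKM ratio of Ppp1r15a to Ppp1r15b averaged 0.654 ± 0.0162 in Grx2-/- cells and 0.886 ± 0.0466 in Grx2+/+ cells (SD, n = 3 each). Sesn2 encodes sestrin 2, a leucine sensor that restrains mTORC1, and had the smallest difference of the class. It had 23.7, 20.0 and 20.6 FPKM in Grx2-/- libraries and 25.7, 23.8 and 24.3 FPKM in Grx2+/+ libraries, so Grx2-/- replicate 1 was just below the lowest Grx2+/+ library. Its value of -0.19 (adjusted p = 0.0297) did not pass when any 1 of Grx2-/- replicates 2 and 3 and Grx2+/+ replicates 1 and 3 was left out, with values of -0.15 to -0.20.

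**Figure D3:**
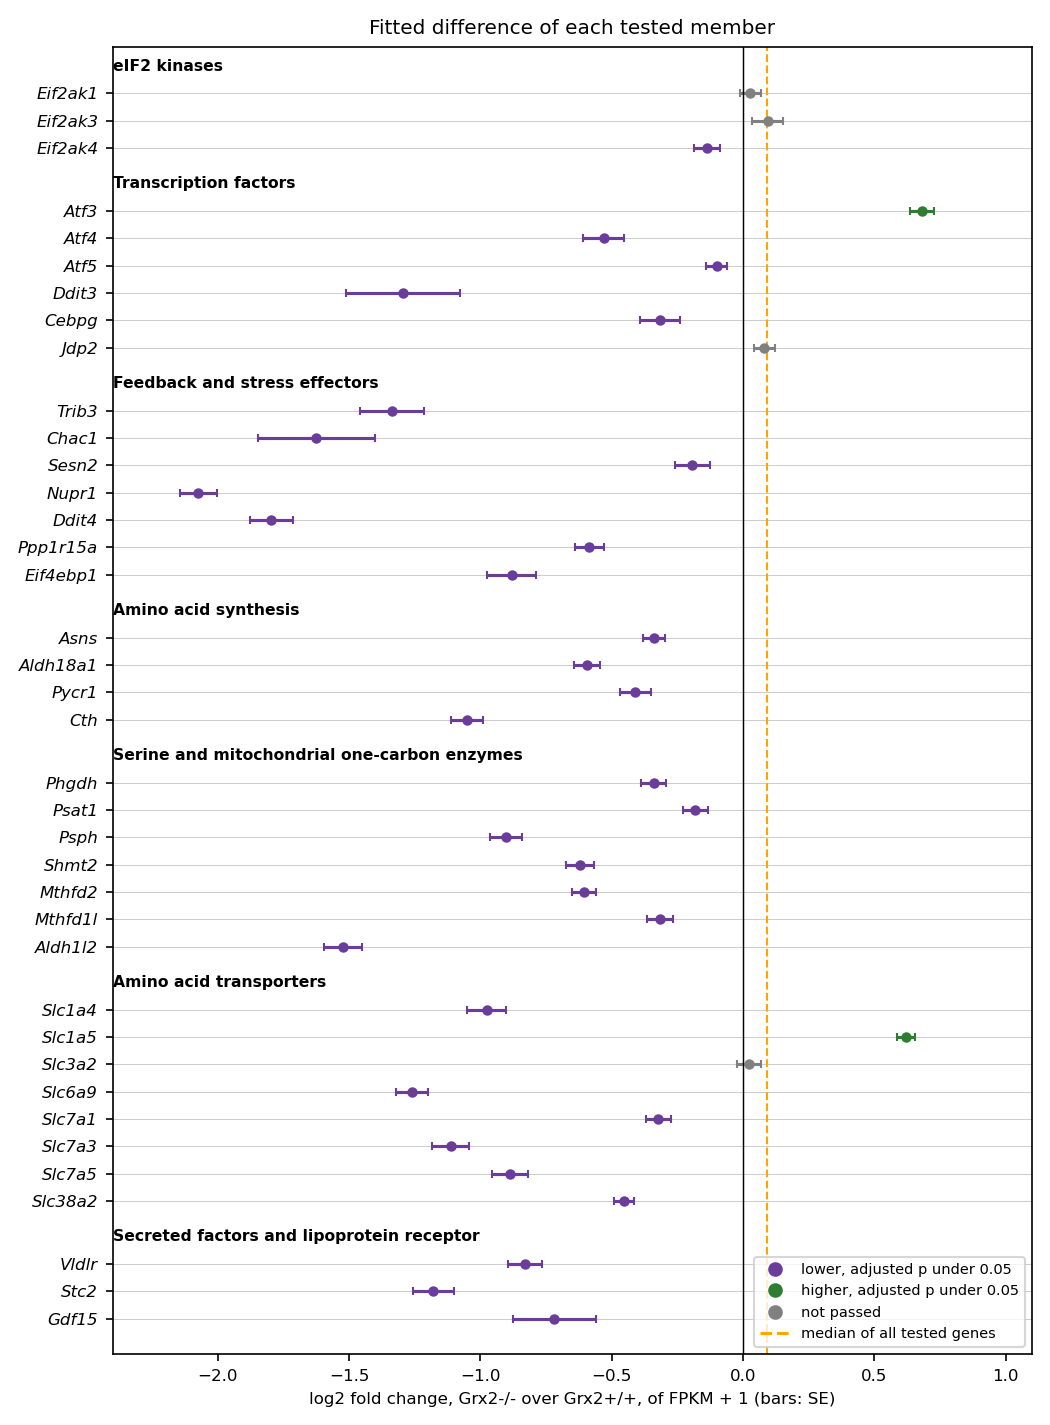
Log2 fold change of FPKM + 1, Grx2-/- over Grx2+/+, of the 38 tested members by class, with bars of 1 SE (n = 3 per group), a solid line at 0 and a dashed line at the median of all tested genes. The 7 feedback and stress effectors lie between -2.07 and -0.19, while Atf3 and Slc1a5 lie at 0.68 and 0.62.

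Among the enzymes of amino acid synthesis, the 4 tested all fell, beside 24.6% of all tested genes, with a median log2 fold change of -0.50. Cth encodes cystathionine gamma-lyase, which makes cysteine in the transsulfuration pathway, and had 4.85, 4.94 and 4.52 FPKM in Grx2-/- replicates 1 to 3, against 11.7, 10.2 and 11.1 FPKM in Grx2+/+ replicates 1 to 3. With no overlap, its log2 fold change was -1.05 ± 0.061 (adjusted p = 2.07e-06). Aldh18a1 and Pycr1, which encode the first and last enzymes from glutamate to proline, an amino acid abundant in collagen, averaged 48.3 ± 2.03 and 14.3 ± 1.02 FPKM in Grx2-/- cells, against 73.5 ± 4.09 and 19.3 ± 0.927 FPKM in Grx2+/+ cells. Their log2 fold changes were -0.59 and -0.41. Asns, asparagine synthetase, averaged 89.2 ± 1.14 FPKM in Grx2-/- cells and 113 ± 6.28 FPKM in Grx2+/+ cells (SD, n = 3 each) and fell by 0.34 on the log2 scale.

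Cbs, cystathionine beta-synthase, which acts just before Cth, was hardly detected. It had 16, 10 and 17 reads in Grx2-/- replicates 1 to 3, against 9, 8 and 9 reads in Grx2+/+ replicates 1 to 3, and was below the filter of a mean of 1 FPKM. Scaled by depth, Grx2-/- libraries held 1.65 times the reads of Grx2+/+ libraries (exact 95% interval 0.989 to 2.79, for counting error alone). The groups did not overlap, but that interval includes equal levels, and the level was under 0.2 FPKM in every library. With no filter on low values its log2 fold change was 0.06 and did not pass (adjusted p = 0.07).

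All 7 enzymes of serine synthesis and mitochondrial one-carbon metabolism were lower, beside 24.6% of all tested genes, with a median log2 fold change of -0.60. Phgdh, Psat1 and Psph encode the successive steps from glycolysis to serine. Phgdh had 103, 112 and 109 FPKM in Grx2-/- replicates 1 to 3 and 145, 129.7 and 137 FPKM in Grx2+/+ replicates 1 to 3 (-0.34 ± 0.049). Psat1 had 111, 122 and 117 FPKM in Grx2-/- libraries and 136, 126 and 137 FPKM in Grx2+/+ libraries (-0.18 ± 0.048). Psph had 8.32, 8.75 and 9.06 FPKM in Grx2-/- libraries and 18.5, 15.9 and 17.1 FPKM in Grx2+/+ libraries (-0.90 ± 0.060). None of the 3 overlapped between groups, and the last step of the route, Psph, had the lowest level and the largest difference.

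In mitochondria SHMT2 splits serine into glycine and a one-carbon unit, which MTHFD2 and MTHFD1L carry on to formate and ALDH1L2 to carbon dioxide. Aldh1l2 had 11.5, 11.7 and 11.6 FPKM in Grx2-/- replicates 1 to 3, against 38.0, 31.1 and 37.1 FPKM in Grx2+/+ replicates 1 to 3. The Grx2-/- libraries were nearly equal and lay far below the others, and the log2 fold change was -1.52 ± 0.071 (adjusted p = 6.49e-07). Shmt2 averaged 63.2 ± 3.21 FPKM in Grx2-/- cells and 97.8 ± 6.05 FPKM in Grx2+/+ cells, and Mthfd2 averaged 48.3 ± 0.851 FPKM in Grx2-/- cells and 74.1 ± 4.51 FPKM in Grx2+/+ cells (SD, n = 3 each). Their log2 fold changes were -0.62 and -0.60, and that of Mthfd1l was -0.32 ± 0.050.

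Several enzymes that do the like work in cytosol and nucleus were higher. Of the 19 tested genes of a list of cytosolic and nuclear folate, purine and methyl-cycle enzymes with folate carriers, 12 rose, 2 fell and 5 did not pass, beside the 42.7% of all tested genes that rose and the 24.6% that fell. The median log2 fold change of the 19 was 0.22. After median-of-ratios scaling there were 9 higher and 2 lower, beside 3699 higher and 3670 lower among all tested genes. Quantile normalization gave 8 higher and 4 lower, beside 3413 higher and 3945 lower among all tested genes. Mthfd1, the cytosolic counterpart of MTHFD2 and MTHFD1L, had 22.4, 22.6 and 22.4 FPKM in Grx2-/- replicates 1 to 3, against 13.3, 14.3 and 13.3 FPKM in Grx2+/+ replicates 1 to 3 (0.68 ± 0.040, adjusted p = 2.34e-06). Shmt1, the cytosolic counterpart of SHMT2, had 5.04, 5.18 and 4.73 FPKM in Grx2-/- libraries and 2.69, 3.42 and 2.80 FPKM in Grx2+/+ libraries (0.60 ± 0.077, adjusted p = 0.000226). Both had every Grx2-/- library above every Grx2+/+ library, as did Tyms, thymidylate synthase (0.62), and Mthfs (0.75), which returns 5-formyl folate to the active pool.

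The balance between compartments therefore differed within each library. The FPKM ratio of Shmt2 to Shmt1 averaged 12.7 ± 0.98 in Grx2-/- cells and 33.4 ± 6.04 in Grx2+/+ cells. That of Mthfd1l to Mthfd1 averaged 0.663 ± 0.0282 in Grx2-/- cells and 1.38 ± 0.12 in Grx2+/+ cells (SD, n = 3 each), so Mthfd1l was the higher of the pair in Grx2+/+ cells and the lower in Grx2-/- cells. Of 3 genes of dividing cells chosen after their values were seen, 2 were also higher. Pcna, a clamp of the replication fork, had 229.7, 250.1 and 239.6 FPKM in Grx2-/- libraries and 97.2, 101 and 96.3 FPKM in Grx2+/+ libraries (1.28 ± 0.040), and Top2a, a topoisomerase, rose by 0.63. Mki67 had 12.7, 28.3 and 24.0 FPKM in Grx2-/- libraries and 11.1, 17.5 and 13.5 FPKM in Grx2+/+ libraries, which overlapped and did not pass (adjusted p = 0.112). What part cell division has in the folate values was not tested.

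**Figure D4:**
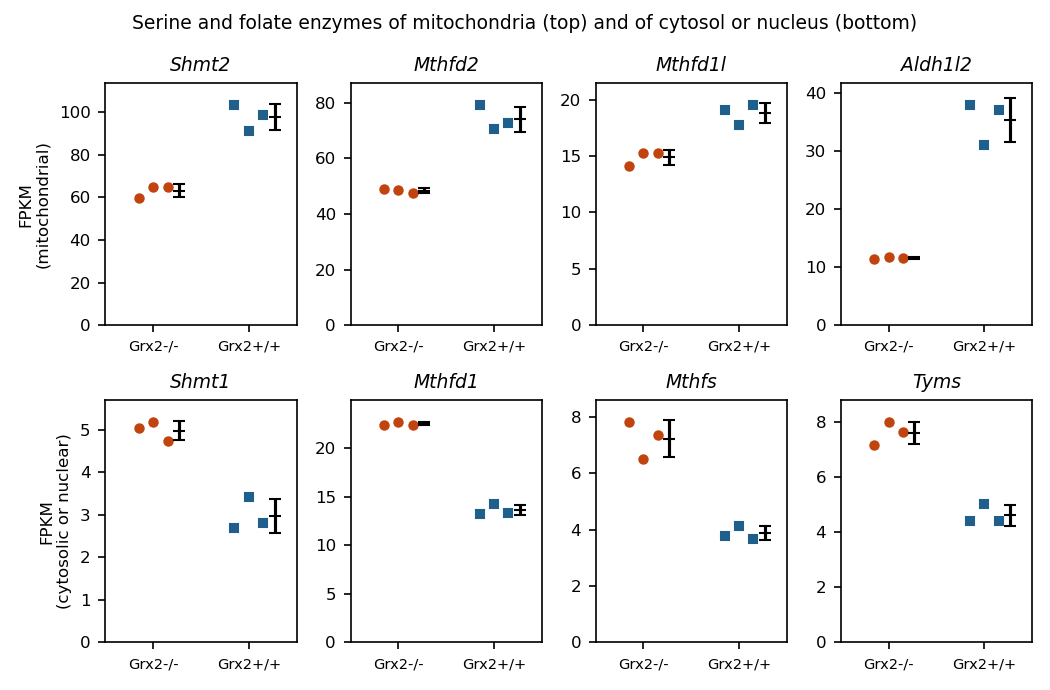
FPKM of 4 mitochondrial enzymes (top) and 4 cytosolic or nuclear enzymes (bottom), 1 point per library, Grx2-/- left of Grx2+/+, with bars for the mean ± SD (n = 3). The Grx2-/- points lie below the Grx2+/+ points in each upper panel and above them in each lower panel.

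The genes that use serine and glycine depended on scaling. Of 9 tested genes on a list of glycine cleavage and serine use, 7 rose, 0 fell and 2 did not pass by limma (1 gene had every Grx2-/- library below every Grx2+/+ library), with a median log2 fold change of 0.19, beside the 42.7% of all tested genes that rose. After median-of-ratios scaling there were 3 higher and 1 lower, with a median of 0.09, beside 3699 higher and 3670 lower among all tested genes. The largest was Sardh (0.62), sarcosine dehydrogenase of mitochondria, followed by Sptlc1 (0.36), a subunit of the enzyme that joins serine to palmitate in sphingolipid synthesis. Mthfd2l, a relative of MTHFD2, had a log2 fold change of 0.22 (adjusted p = 0.0137). It was 0.14 with median-of-ratios scaling, 0.18 without Grx2-/- replicate 3 and 0.19 without Grx2+/+ replicate 1, and did not pass in any of these. The FPKM ratio of Mthfd2 to Mthfd2l averaged 14.7 ± 1.13 in Grx2-/- cells and 27.6 ± 3.31 in Grx2+/+ cells (SD, n = 3 each).

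Of the 8 amino acid transporters, 6 fell, Slc1a5 rose and Slc3a2 did not pass, beside the 24.6% of all tested genes that fell and the 42.7% that rose. Without Slc7a3, which passed the filter only through Grx2+/+ cells, 5 of 7 fell, with a median log2 fold change of -0.45. Slc6a9 encodes the glycine transporter GLYT1 and had 6.91, 6.45 and 6.17 FPKM in Grx2-/- replicates 1 to 3, against 17.9, 15.7 and 17.3 FPKM in Grx2+/+ replicates 1 to 3. Its groups stood far apart, with a log2 fold change of -1.26 ± 0.061 (adjusted p = 7.69e-07). Slc7a3, a transporter of cationic amino acids, had 0.440, 0.478 and 0.449 FPKM in Grx2-/- libraries and 2.14, 1.93 and 2.41 FPKM in Grx2+/+ libraries. For the reason given, its log2 fold change of -1.11 is a value and not support. Grx2-/- libraries held 0.211 times its reads in Grx2+/+ libraries (exact 95% interval 0.186 to 0.239).

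Slc1a4 and Slc1a5 encode the neutral amino acid exchangers ASCT1 and ASCT2, of which ASCT2 is a main carrier of glutamine. Slc1a4 had 22.7, 19.3 and 21.4 FPKM in Grx2-/- replicates 1 to 3, against 46.3, 38.9 and 42.6 FPKM in Grx2+/+ replicates 1 to 3 (-0.98 ± 0.075, adjusted p = 1.09e-05). Slc1a5 had 41.1, 41.2 and 42.0 FPKM in Grx2-/- libraries and 26.0, 27.2 and 26.7 FPKM in Grx2+/+ libraries (0.62 ± 0.033, adjusted p = 1.36e-06). The relatives thus differed in opposite directions with no overlap, and the FPKM ratio of Slc1a4 to Slc1a5 averaged 0.511 ± 0.0424 in Grx2-/- cells and 1.60 ± 0.174 in Grx2+/+ cells (SD, n = 3 each).

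Slc7a5 encodes LAT1, the light chain that exchanges large neutral amino acids, and Slc3a2 the heavy chain it shares with other light chains. Slc7a5 had 35.6, 41.4 and 39.7 FPKM in Grx2-/- replicates 1 to 3, against 76.1, 66.8 and 75.5 FPKM in Grx2+/+ replicates 1 to 3 (-0.89 ± 0.069, adjusted p = 1.13e-05). Slc3a2 had 24.9, 27.2 and 27.1 FPKM in Grx2-/- libraries and 26.7, 25.2 and 26.0 FPKM in Grx2+/+ libraries, which overlapped. Its log2 fold change was 0.02, with a 95% interval of -0.08 to 0.13. The light chain was therefore lower while the heavy chain showed no detectable difference, and their FPKM ratio averaged 1.47 ± 0.0467 in Grx2-/- cells and 2.80 ± 0.135 in Grx2+/+ cells (SD, n = 3 each). Slc38a2, which encodes the sodium-coupled carrier SNAT2, averaged 50.5 ± 2.02 FPKM in Grx2-/- cells and 69.6 ± 1.66 FPKM in Grx2+/+ cells (-0.45), and Slc7a1, the cationic amino acid carrier CAT1, averaged 20.3 ± 1.14 FPKM in Grx2-/- cells and 25.6 ± 0.681 FPKM in Grx2+/+ cells (-0.32).

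The secreted factors and the lipoprotein receptor fell where they could be tested, 3 of 3, beside 24.6% of all tested genes. Stc2 encodes stanniocalcin 2, a secreted glycoprotein, and had 3.86, 4.04 and 3.59 FPKM in Grx2-/- replicates 1 to 3, against 9.94, 8.85 and 11.1 FPKM in Grx2+/+ replicates 1 to 3. Its log2 fold change was -1.18 ± 0.079 (adjusted p = 5.05e-06), the largest of the class. Vldlr, the receptor for very low density lipoprotein, averaged 3.29 ± 0.173 FPKM in Grx2-/- cells and 6.64 ± 0.500 FPKM in Grx2+/+ cells (-0.83). Gdf15, a circulating stress hormone of the TGF-beta family, had 5.61, 3.04 and 4.38 FPKM in Grx2-/- libraries and 8.21, 7.18 and 7.51 FPKM in Grx2+/+ libraries, with no overlap and a log2 fold change of -0.72 ± 0.16 (adjusted p = 0.00409).

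Fgf21, a metabolic hormone that mitochondrial stress induces in muscle, was close to the limit of detection. It had 1, 2 and 3 reads in Grx2-/- replicates 1 to 3, against 11, 11 and 13 reads in Grx2+/+ replicates 1 to 3. Grx2-/- libraries thus held 0.171 times the reads of Grx2+/+ libraries (exact 95% interval 0.0587 to 0.41, for counting error alone). It was below the filter; with no filter it fell, with a log2 fold change of -0.31 (adjusted p = 0.0003).

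The members also differed among libraries of 1 genotype. Grx2+/+ replicate 2 was the lowest library of its group for 34 of the 38 tested members (89.5%) and for 26.0% of all tested genes, and Grx2+/+ replicate 1 was the highest for 29 members (76.3%) and for 27.7% of all tested genes. Replicate 2 also had the highest sum of neutrophil markers in its group, 2560 FPKM, against 881 and 1404 FPKM in replicates 1 and 3, and the part of this in the members' levels was not tested. Among Grx2-/- libraries replicate 1 was the highest for 15 members (39.5%, against 41.8% of all tested genes) and the lowest for 20 (52.6%, against 40.0%). The 4 widest members in Grx2-/- cells, Chac1, Ddit3, Gdf15 and Trib3, were all highest in replicate 1 and lowest in replicate 2, by 2.18, 2.12, 1.84 and 1.41 times. Replicate 1 had the lowest macrophage sum of its group, 2243 FPKM, and replicate 2 the highest, 3038 FPKM.

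Leaving out the libraries that stood apart changed few counts. Without both Grx2-/- replicate 1 and Grx2+/+ replicate 2, 31 members fell and 2 rose, beside 2758 lower and 4909 higher among all tested genes. The log2 fold change of Ddit3 was then -1.63 and that of Chac1 -1.99, each larger in size than with all libraries, and that of Atf4 was -0.67. For Gdf15 it was -0.92, against -0.72 with all libraries and -0.53 without Grx2-/- replicate 2.

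**Figure D5:**
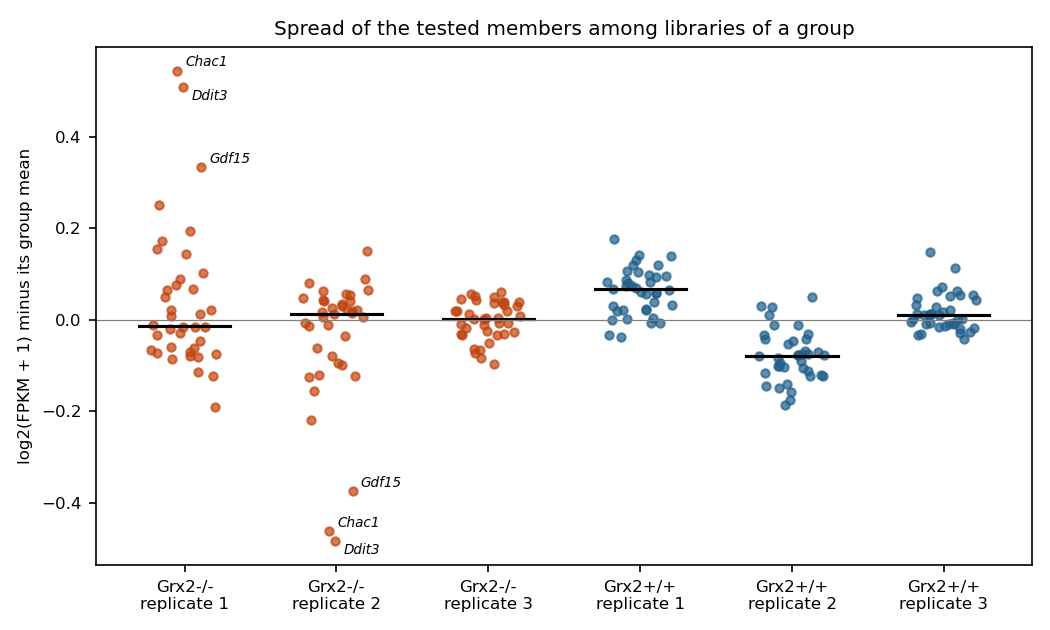
Log2(FPKM + 1) of each tested member minus its mean in its own group, 1 point per member, by library, with lines at the medians. Grx2+/+ replicate 2 lies low for most members, and Chac1, Ddit3 and Gdf15 stand high in Grx2-/- replicate 1 and low in Grx2-/- replicate 2.

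For 9 members the RefSeq table gives a protein-coding gene whose span overlaps theirs, Eif2ak1, Atf5, Ddit3, Cebpg, Ppp1r15a, Psph, Shmt2, Slc6a9 and Slc7a3. How the counting treated strand is not given, so reads in those overlaps, such as those of Ddit3 with Mars1 or of Psph with Cct6a, cannot be told apart.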

How the data were processed

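Messenger RNA was measured in 3 Grx2-/- and 3 Grx2+/+ libraries, grouped by the genotype in the titles. Per the labels' protocols, TRIzol was used for extraction and a VAHTS Universal V6 kit for the libraries. FPKM values were deposited by the authors, 1 column per library. Per the submitters' processing notes, HISAT2, HTSeq, R 3.2.0 and the build GRCm39 were used. Other versions, the annotation and how strand was counted are not named there. FPKM corrects for depth and length but not for shifts in composition.

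Whole reads worked back from the steps of the FPKM values were whole within 1e-06 reads for 22982 genes (99.99%); they served for depth, for voom and for exact intervals, which cover counting error only. The 11083 genes whose FPKM averaged 1 or more went into a limma fit of log2(FPKM + 1) (limma 3.58.1, R 4.3.3, trended eBayes, two-sided) and were called at a Benjamini-Hochberg adjusted p under 0.05 over all of them. The test was checked on simulated data. Cbs and Fgf21 were below this filter and tested only in the alternative with no filter.

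The members, classes, other lists and some alternatives were chosen with earlier results of these data known. Any member may be named; from each other list, the named genes are among the up to 5 called genes with the largest difference whose groups do not overlap; some genes that these rules allow are not reported here. Alternatives changed 1 choice at a time: pseudocount, filter, scaling, variance model, replicate block, voom on reads, libraries left out and thresholds. Pycr3 was matched through its RefSeq synonym; the markers Cd3e and Alas2 were not analysed here. Promoter windows and gene spans came from RefSeq tables of GRCm38.p6, another build than that of the notes, and were matched by symbol. Figures were drawn with matplotlib 3.10.9.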

Additional observations from a re-analysis of the deposited data

How the results depend on the processing

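The number of members that fell was 28 to 32, and of those that rose 2 or 3, under every alternative except a 2-fold minimum. Under the same alternatives 1883 to 3945 of all tested genes fell and 3378 to 5499 rose, and the number tested depended on the filter. The 2-fold minimum left 10 lower and 0 higher among members and 392 lower and 719 higher among all tested genes. Leaving out 1 library gave 29 to 31 members lower and 2 to 3 higher, and 2337 to 2853 genes lower and 4190 to 4689 higher. Of the 34 called members, 30 kept their call under every alternative that tested them, the 2-fold minimum aside; Eif2ak4, Atf5, Sesn2 and Psat1 did not, Psat1 only at adjusted p under 0.01. Scaling turned the sign of members that had not passed: with median-of-ratios scaling Eif2ak1 was at -0.07, Jdp2 at -0.02 and Slc3a2 at -0.08, and with quantile normalization Eif2ak1 was at -0.11, Eif2ak3 at -0.03, Jdp2 at -0.05 and Slc3a2 at -0.12. The median of all tested genes was 0.09 as deposited, 0.00 with median-of-ratios scaling and -0.03 with quantile normalization, and these signs changed with that shift. The deviations of same-numbered libraries correlated at 0.107, 0.124 and 0.0199, so the numbers were not taken as pairs. The replicate block gave 30 members lower and 2 higher, beside 2791 lower and 4771 higher among all tested genes. Depth limits Cbs and Fgf21, which rest on 8 to 17 and 1 to 13 reads per library.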

Other observations

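Amino acid genes outside the 40 moved both ways. Of 13 tested amino acid transporters on a further list, 8 rose and 5 fell, beside the 42.7% of all tested genes that rose and the 24.6% that fell. Without Slc1a3, which passed the filter only through its level in Grx2-/- cells, 7 of 12 rose. Slc1a3, a glutamate transporter, had 9.76, 7.08 and 7.57 FPKM in Grx2-/- replicates 1 to 3, against 0.291, 0.568 and 0.380 FPKM in Grx2+/+ replicates 1 to 3, given as values alone. Slc7a8 encodes LAT2, the other light chain for large neutral amino acids, and had 21.3, 24.7 and 25.0 FPKM in Grx2-/- libraries and 8.08, 7.80 and 8.60 FPKM in Grx2+/+ libraries (1.43). The FPKM ratio of Slc7a5 to Slc7a8 averaged 1.65 ± 0.0494 in Grx2-/- cells and 8.92 ± 0.454 in Grx2+/+ cells (SD, n = 3 each). Slc43a2 (1.65) and Slc16a10 (1.68), which carry large neutral and aromatic amino acids, were also higher. Among those that fell were Slc7a7, at 1.88, 1.80 and 1.88 FPKM in Grx2-/- libraries and 5.34, 5.32 and 5.33 FPKM in Grx2+/+ libraries (-1.15), and Slc7a6 (-0.77), light chains for cationic and neutral amino acids, which were named after their values were seen.

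Of 16 tested enzymes of amino acid use, 7 rose, 4 fell and 5 did not pass, shares near those of all tested genes. Ass1, argininosuccinate synthase, had 52.7, 48.3 and 48.2 FPKM in Grx2-/- replicates 1 to 3, against 7.98, 11.2 and 8.80 FPKM in Grx2+/+ replicates 1 to 3 (2.31 ± 0.10). Gpt2, mitochondrial alanine transaminase, had 3.26, 3.25 and 2.99 FPKM in Grx2-/- libraries and 9.39, 8.34 and 9.15 FPKM in Grx2+/+ libraries (-1.26 ± 0.059). Bcat1, the cytosolic transaminase of branched-chain amino acids, and Pck2, mitochondrial PEP carboxykinase, were lower as well (-1.16 and -0.68).

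Among 20 further genes linked to ATF4, 10 fell, 9 rose and 1 did not pass, with a median log2 fold change of -0.03, beside the 24.6% of all tested genes that fell and the 42.7% that rose. With median-of-ratios scaling 10 fell and 7 rose, beside 3670 lower and 3699 higher among all tested genes. Vegfa, the vascular growth factor, had 19.4, 16.5 and 17.3 FPKM in Grx2-/- libraries and 52.9, 49.0 and 52.2 FPKM in Grx2+/+ libraries (-1.49 ± 0.060). Ero1a, an oxidase of the endoplasmic reticulum, was lower (-1.03) and Klf4, a transcription factor, higher (1.04).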
